A study of Homo sapiens with 8 samples.

Results

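RNA polymerase II, with its general transcription factors, is the machinery that starts transcription at protein-coding genes, and 38 human genes of this machinery were followed: the subunits of polymerase II, TFIIA, TFIIB, TFIIE, TFIIF, most of TFIIH and most of TFIID. They were taken from a list of names, with no threshold on their values, and matched to the platform's gene annotation by symbol or gene identifier, out of 19775 genes with a probe set of their own. Of the 38 genes, 37 had such a probe set, 69 sets in all. All 37 were bright enough to be tested, among 11865 tested genes. The exception was TAF9, a histone-fold subunit of TFIID, whose probe set is annotated to 2 genes (AK6 and TAF9), so it has no value here. POLR2J has near-identical copies in the genome, and probe sets annotated to more than 1 of them were not used. The 1 set that stood for POLR2J is still of the shared kind, whose probes can match other transcripts. Its values may therefore include the copies, and POLR2J could not be tested without shared probe sets.

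Polymerase II reaches a promoter through these factors. TFIID, made of the TATA-binding protein TBP and its associated factors (TAFs), binds the core promoter, TFIIA steadies it there, TFIIB bridges it to the polymerase, TFIIF arrives with the polymerase, and TFIIE brings in TFIIH. TFIIH opens the DNA, takes part in nucleotide excision repair, and carries the CDK-activating kinase (CDK7, cyclin H and MAT1), which phosphorylates the repeated C-terminal domain of POLR2A and also activates cell cycle kinases.

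The arrays (HG-U133 Plus 2.0, 1 for each RNA sample) came from 2 established human myeloma cell lines, MM1S and OPM1, each as untreated control and after Zalypsis, a DNA-binding compound of marine origin, at 5 nM. Treated cells were collected at the onset of cell death, when 15 to 20% were dying, and the treatment time is not given in the sources used here. Each of the 4 groups had 2 arrays, and the labels name no other agent or genetic change. Whether a group's arrays stem from separate cultures is not stated, so the p-values reflect only array-to-array spread, possibly technical. In such bulk samples, fewer cells of a type and less RNA per cell cannot be told apart.

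Several measures of the whole arrays moved with the groups. The plasma cell marker SDC1 lay between 6.56 and 13.96 on the OPM1 arrays and between 2370 and 3443 on the MM1S arrays, and the B-cell factor PAX5 stood at 2883 and 3556 on the OPM1 controls against at most 9.54 in MM1S, so the cells are called OPM1-labelled here. PAX5 was at 64.8 and 37.0 after treatment. The summed signal of 10 plasma cell markers was 36320 to 38870 in MM1S controls, 27910 to 29210 in treated MM1S, 5600 to 6427 in OPM1-labelled controls and 4854 to 5396 in treated OPM1-labelled cells. For 7 measured markers of earlier B cells it was 162 to 192 in MM1S, 5876 to 6527 in OPM1-labelled controls and 915 to 940 in treated ones. Not every marker followed the sum of its list. The earlier B-cell marker SPIB read 250 and 243 in OPM1-labelled controls and 496 and 502 after treatment. The plasma cell marker CD38 read 400 and 578 in OPM1-labelled controls against 61.1 and 47.3 in MM1S controls. JCHAIN and DERL3, also plasma cell markers, were higher on both treated OPM1-labelled arrays than on their controls. The 6 T and NK cell markers summed to between 61.2 and 146, and the 4 measured myeloid markers to between 43.4 and 170.3, with 0 of either list over a signal of 100 on both arrays of any group. The 6 epithelial and stromal markers summed to 4513 to 5039 in MM1S and 159.7 to 269.5 in OPM1-labelled cells. Vimentin alone gave 4361 to 4904 in MM1S, where each other marker of that list read at most 80.6. OPM1 control 1 stood apart in its 3' to 5' signal ratios, a sign of RNA quality: GAPDH gave 2.26 there (0.963 to 1.06 on the other arrays) and ACTB 5.80 (1.78 to 2.62). The part of these differences in the results was not tested.

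The scale of the OPM1-labelled comparison is not settled. The 4 probe sets of the poly-A controls, bacterial transcripts spiked in ahead of labelling, had a geometric mean of 299.7 and 448 on the controls and 1862 and 1349 on the treated arrays. With the values as deposited, the median log2 change of all tested genes was -0.07 in OPM1-labelled cells, with quantile normalization it was 0.10, and with each array divided by its poly-A controls it was -1.68. On that last scale 0 of 37 members were higher and 34 were lower (all tested genes: 68 higher, 10983 lower), and the members' median was -1.93. Every rise of a member in OPM1-labelled cells given below is therefore a rise relative to the other genes on the deposited scale, and each of these turned negative under poly-A scaling. The poly-A controls lay near background in MM1S (19.7 to 25.7), where this scaling could not be used.

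Changes below are Zalypsis minus control on the log2(signal + 32) scale, ± the standard error, from limma's fit over all 8 arrays, with p-values adjusted by the Benjamini-Hochberg method over all 11865 genes. Genes with an adjusted p under 0.05 were called, and "rose" and "fell" are used only for called genes. Folds are ratios of mean signals.

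In MM1S, the machinery split both ways. Of 37 members, 7 rose (18.9%), against 16.4% of all tested genes, and 8 fell (21.6%), against 21.1% of all tested genes. POLR2A rose over 3-fold and MNAT1 fell over 10-fold, while most other changes stayed under 2-fold. Over 2-fold, 1 member rose (all genes 1.63%) and 2 fell (all genes 7.16%). The median log2 change was 0.12 for the members and 0.02 for all tested genes. The number that rose was 3 without MM1S control 2, 3 without MM1S Zalypsis 1, and 13 with quantile normalization, under which 9 fell. Quantile normalization moved the share of higher genes among all calls from 43.8% to 54.4%.

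In OPM1-labelled cells, 31 of 37 members were called. Of these 17 rose (45.9%), against 25.4% of all tested genes, and 14 fell (37.8%), against 38.5% of all tested genes. Over 2-fold, 8 rose (all genes 7.59%) and 7 fell (all genes 22.1%). The median log2 change was 0.11 for the members and -0.07 for all tested genes. With quantile normalization, 20 members rose and 11 fell, and the share of higher genes among all calls moved from 39.7% to 54.2%. Of the 17, 13 were still called higher without OPM1 control 1.

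**Figure D1:**
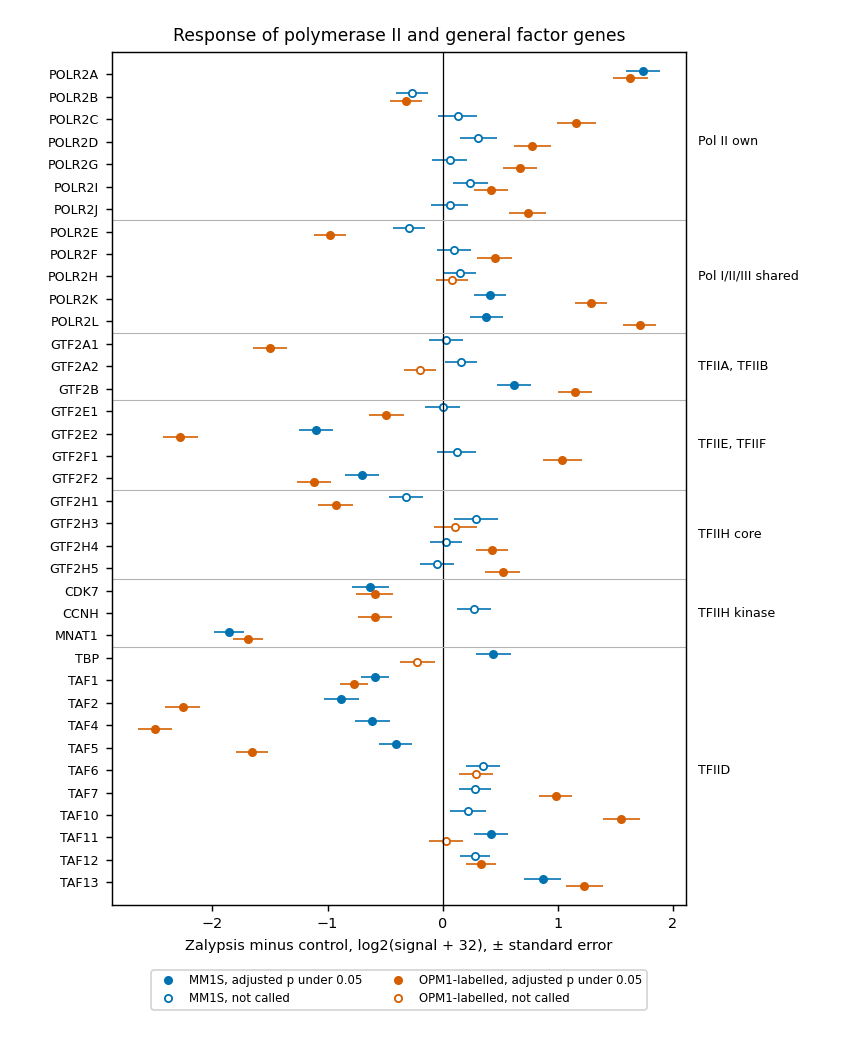
Log2 change (Zalypsis minus control, log2(signal + 32), ± standard error) of the 37 measured members in MM1S (blue) and OPM1-labelled cells (orange), grouped by complex. Filled points have an adjusted p under 0.05: POLR2A stands at 1.74 and 1.63, MNAT1 at -1.86 and -1.69, and TAF4 at -0.61 and -2.50. Rises in OPM1-labelled cells are on the deposited scale and turn negative under poly-A scaling.

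Of the 37 members, 5 rose in both lines (13.5%, against 9.55% of all tested genes): POLR2A, POLR2K, POLR2L, GTF2B and TAF13. Another 8 fell in both (21.6%, against 17.6% of all tested genes): GTF2E2, GTF2F2, CDK7, MNAT1, TAF1, TAF2, TAF4 and TAF5. None of the 37 was called in opposite directions, against 220 of all 11865 genes with a rise in MM1S and a fall in OPM1-labelled cells, and 51 with the reverse. TBP and TAF11 were called, as higher, in MM1S but not in OPM1-labelled cells (5.41% of the 37, against 5.03% of all tested genes). The reverse held for 18 members. Of these, 12 rose in OPM1-labelled cells (32.4% of the 37, against 15.4% of all tested genes) and 6 fell (16.2%, against 19.0%). POLR2H, GTF2A2, GTF2H3 and TAF6 passed the threshold in neither line (10.8%, against 28.0% of all tested genes). The comparisons of the 2 lines share no arrays, but both come from the same fit over all 8 arrays. Their calls share an estimate of the spread and are not independent.

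Among the polymerase's own subunits, POLR2A moved most. It encodes the largest subunit, whose C-terminal domain is the target of the transcription kinases. Its signal was 836 and 633 on the MM1S controls and 2632 and 2382 after Zalypsis (log2 1.74 ± 0.15, 3.41-fold, adjusted p = 3.0e-09). In OPM1-labelled cells the signal went from 1238 and 1148 to 3630.2 and 3868 (log2 1.63 ± 0.15, 3.14-fold, adjusted p = 1.9e-09). Treated and control arrays stood well apart in both lines, and the responses differed by -0.11 ± 0.21 (adjusted p = 0.688). The other probe sets of POLR2A were dim, with mean signals of 16.5 and 15.5, and changed by 0.02 and 0.27 in MM1S.

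POLR2B, the second-largest subunit, which forms the active centre with POLR2A, did not rise with it. Its signal was 2118 and 1780 in MM1S controls and 1715 and 1510 after treatment (log2 -0.27 ± 0.14, adjusted p = 0.143). OPM1-labelled cells read 1818 and 1988 as controls and 1513 and 1520 after treatment (log2 -0.32 ± 0.14, adjusted p = 0.049). That last call was at the threshold and was lost under quantile normalization (-0.16, adjusted p = 0.0986), without OPM1 control 2 (-0.26, adjusted p = 0.174), without either treated OPM1 array (adjusted p = 0.16 and 0.149), without either treated MM1S array (0.0672 and 0.0667), and in 4 other settings (a pseudocount of 64, no filter, the mean of the probe sets, and without shared sets). On the deposited scale the largest and second-largest subunits gave opposite signs in both lines, though POLR2B was not called in MM1S. Under poly-A scaling both were negative in OPM1-labelled cells (POLR2A -0.45, POLR2B -2.39).

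The smaller subunits of polymerase II's own rose in OPM1-labelled cells, 5 of 5 (POLR2C, POLR2D, POLR2G, POLR2I and POLR2J), and 0 of 5 were called in MM1S, where 16.4% of all tested genes rose (25.4% in OPM1-labelled cells). POLR2C, an assembly subunit that pairs with POLR2J, went from 594 and 795 to 1481 and 1688 (log2 1.16 ± 0.17, adjusted p = 2.1e-06), while in MM1S it read 626 and 513 before and 666 and 581 after, with overlapping arrays. A second set of POLR2C, at a mean signal of 568, changed by 0.39 in MM1S and by 1.31 in OPM1-labelled cells. In MM1S that set read 266 and 282 before and 404 and 335 after. A dim set, at 16.9, changed by 0.19 and -0.03. These other sets were not part of the test. POLR2J changed by 0.74 ± 0.16 (adjusted p = 3.2e-04), from 1122 and 1687 to 2209 and 2448. POLR2D and POLR2G form the stalk of the enzyme. POLR2D changed by 0.78 ± 0.16 (1006 and 1019 to 1823 and 1710.2, adjusted p = 2.1e-04) and POLR2G by 0.67 ± 0.15 (912 and 1043 to 1565 and 1568, adjusted p = 6.0e-04). POLR2D's second probe set, at a mean signal of 229, changed by 0.61 in MM1S and by only 0.22 in OPM1-labelled cells, and with it in place of the shared set the call was lost (adjusted p = 0.183). POLR2I, a fidelity subunit, changed least (695 and 789 to 1001 and 1007, log2 0.42 ± 0.15, adjusted p = 0.0189), a call lost without OPM1 control 1 (0.34, adjusted p = 0.115) and without either treated OPM1 array (0.081 and 0.0856).

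Polymerases I, II and III share 5 subunits, and these did not move as 1 group. POLR2L and POLR2K, the smallest, rose in both lines. POLR2L read 2993 and 2539.9 in MM1S controls and 3731 and 3463 after treatment (log2 0.38 ± 0.14, adjusted p = 0.0372), and 1123 and 1519 before against 4230.3 and 4467 after in OPM1-labelled cells (log2 1.71 ± 0.14, 3.29-fold, adjusted p = 4.3e-10). POLR2K read 1049 and 1005 before and 1453 and 1303 after in MM1S (log2 0.41 ± 0.14, adjusted p = 0.027), and 987 and 1191 before against 2602 and 2797 after in OPM1-labelled cells (log2 1.29 ± 0.14, adjusted p = 5.2e-08). A second bright set of POLR2K, at a mean signal of 1120, changed by 0.37 and 0.99. Both MM1S calls depended on single arrays: POLR2K was lost without MM1S control 2, Zalypsis 1 or Zalypsis 2 (adjusted p = 0.0894, 0.221 and 0.0544) and POLR2L likewise (0.258, 0.214 and 0.0772). POLR2L was also lost without either treated OPM1 array (0.0568 and 0.057), with no filter (0.094), with no trend (0.0559) and with the mean of its sets (0.328). Its second set, dim at a mean signal of 61.9, changed by -0.05 in MM1S and by 0.31 in OPM1-labelled cells.

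POLR2E went the other way in OPM1-labelled cells, from 2979 and 3617 to 1739 and 1568 (log2 -0.98 ± 0.14, adjusted p = 3.5e-06). In MM1S it read 2107 and 1723 before and 1663 and 1454 after (log2 -0.29 ± 0.14, adjusted p = 0.126). Its second set did not follow in OPM1-labelled cells (log2 0.02, from 363 and 1295 to 604 and 814, with overlapping arrays), and the mean of both sets was not called (-0.48, adjusted p = 0.133). POLR2F rose modestly in OPM1-labelled cells (1045 and 1142 to 1424 and 1597, log2 0.45 ± 0.15, adjusted p = 0.0128), and this was lost without OPM1 control 1 (0.39, adjusted p = 0.0639) or OPM1 Zalypsis 2 (0.37, adjusted p = 0.125). POLR2H changed by 0.15 ± 0.14 in MM1S and by 0.08 ± 0.14 in OPM1-labelled cells, with overlapping arrays in each.

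**Figure D2:**
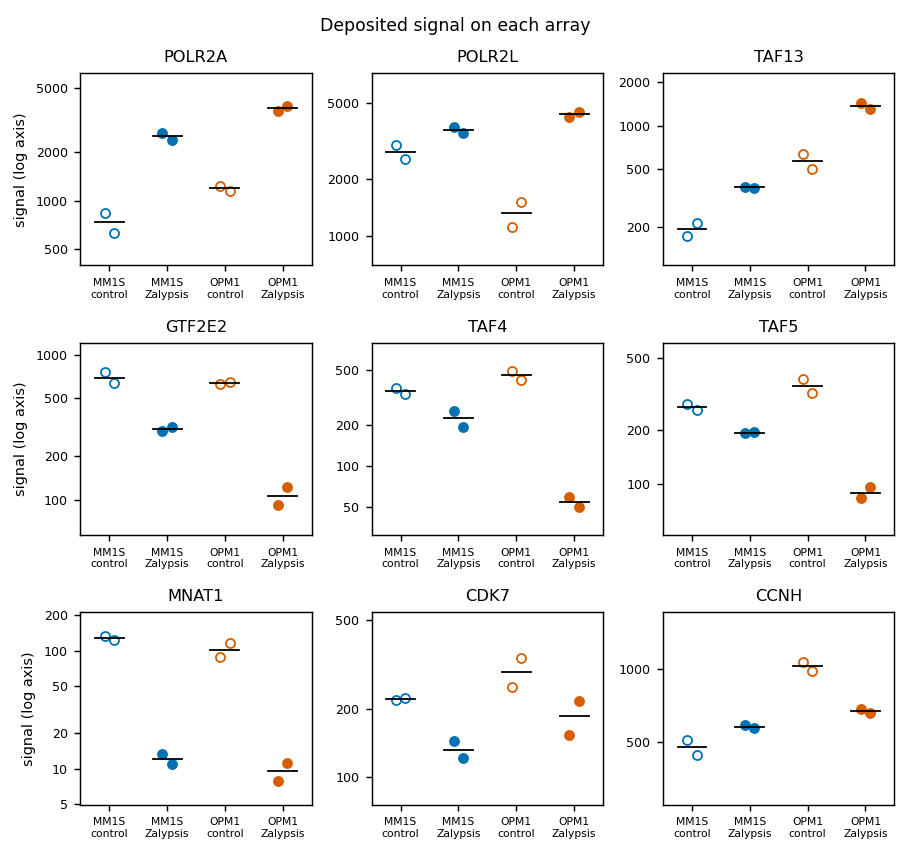
Deposited signal (log axis) of 9 members on each of the 8 arrays; open points are controls, filled points are Zalypsis, and a line marks the mean of each group of 2. POLR2A, POLR2L and TAF13 are higher on the treated arrays of both lines, GTF2E2, TAF4, TAF5, MNAT1 and CDK7 are lower on them, and CCNH is lower only on those of OPM1-labelled cells; the rises of OPM1-labelled cells turn negative under poly-A scaling.

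TFIIB and TFIIA also parted. GTF2B, the bridge between TBP and the polymerase, rose from 683 and 624 to 1075 and 968 in MM1S (log2 0.62 ± 0.15, adjusted p = 2.8e-03). The rise in OPM1-labelled cells was from 742 and 683 to 1435 and 1814 (log2 1.15 ± 0.15, 2.28-fold, adjusted p = 9.2e-07). GTF2A1, which encodes the large subunits of TFIIA, fell in OPM1-labelled cells, from 454 and 443 to 127 and 149.9 (log2 -1.50 ± 0.15, a 3.24-fold decrease, adjusted p = 1.4e-08). In MM1S its treated arrays (617 and 552) overlapped its controls (631 and 514). GTF2A2, the small subunit of TFIIA, was not called on its brightest set (0.16 ± 0.14 and -0.20 ± 0.14). A dimmer set annotated to GTF2A2 behaved differently: it read 149 and 163 before and 352 and 370.5 after in MM1S, and 69.6 and 83.3 before and 724 and 735 after in OPM1-labelled cells, changes of 1.06 and 2.82 that were not part of the test.

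Of the 4 subunits of TFIIE and TFIIF, 2 fell and 0 rose in MM1S (all tested genes 21.1% and 16.4%). In OPM1-labelled cells 3 fell and 1 rose (all tested genes 38.5% and 25.4%). GTF2E2, the small subunit of TFIIE, fell from 754 and 636 to 297 and 317 in MM1S (log2 -1.10 ± 0.15, a 2.26-fold decrease, adjusted p = 5.4e-06). OPM1-labelled cells showed a fall from 632 and 647 to 92.3 and 123 (log2 -2.28 ± 0.15, a 5.95-fold decrease, adjusted p = 1.7e-11). GTF2E1, its partner, changed by 0.00 ± 0.15 in MM1S (adjusted p = 0.992) and fell from 462 and 458 to 324 and 311 in OPM1-labelled cells (log2 -0.49 ± 0.15, adjusted p = 5.0e-03), a call lost under quantile normalization (-0.12, adjusted p = 0.311). GTF2F2, the small subunit of TFIIF, fell in both lines, from 167 and 186 to 83.7 and 110.1 (log2 -0.70 ± 0.15, adjusted p = 5.9e-04) and from 181 and 215 to 87.3 and 61.1 (log2 -1.12 ± 0.15, adjusted p = 5.9e-07). GTF2F1, the large subunit of TFIIF, rose in OPM1-labelled cells instead, from 132 and 209 to 349.5 and 403 (log2 1.04 ± 0.17, adjusted p = 1.4e-05). Its 3 probe sets gave 1.04, 1.34 and 0.73 there, and in MM1S they gave 0.12, 0.19 and 0.15.

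In the TFIIH core, 3 of 4 measured genes were called in OPM1-labelled cells, each by less than 1 on the log2 scale, and 0 of 4 in MM1S. Among all tested genes 25.4% rose and 38.5% fell in OPM1-labelled cells, and 16.4% and 21.1% in MM1S. GTF2H1, a scaffold subunit, fell from 747 and 605 to 349 and 325 (log2 -0.93 ± 0.15, adjusted p = 1.2e-05), and its other sets changed by -0.77 and -0.75. GTF2H4 rose from 237 and 258 to 357 and 332 (log2 0.43 ± 0.14, adjusted p = 8.5e-03), and GTF2H5, the small subunit needed for repair, from 228 and 318 to 382 and 418 (log2 0.52 ± 0.15, adjusted p = 5.8e-03). The call of GTF2H4 was lost without OPM1 Zalypsis 1 (0.38, adjusted p = 0.0542) and that of GTF2H5 without OPM1 control 1 (0.30, adjusted p = 0.154). GTF2H3 read 1087 and 708 before and 1160.4 and 772 after, with overlapping arrays, and was called in neither line. A second set of GTF2H3, at a mean signal of 196, was not part of the test. It read 323 and 304 before and 217 and 199.6 after in OPM1-labelled cells (log2 -0.52), and changed by -0.09 in MM1S.

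The CDK-activating kinase of TFIIH held the deepest relative loss of signal among the members. MNAT1, which encodes the assembly factor MAT1, read 133 and 124 in MM1S controls and 13.4 and 11.0 after Zalypsis (log2 -1.86 ± 0.13, a 10.6-fold decrease, adjusted p = 3.0e-10). In OPM1-labelled cells it read 88.4 and 117 before and 7.94 and 11.2 after (log2 -1.69 ± 0.13, a 10.7-fold decrease, adjusted p = 2.9e-10). Its treated signals lay under the median of all probe sets, which was 23.0 to 24.8, so the size of the decrease is imprecise. The responses differed by 0.17 ± 0.19 between the lines (adjusted p = 0.488). CDK7, the kinase itself, fell from 220.2 and 224 to 144 and 121 in MM1S (log2 -0.63 ± 0.16, adjusted p = 3.3e-03). In OPM1-labelled cells it fell from 252 and 337 to 154 and 218 (log2 -0.59 ± 0.16, adjusted p = 2.8e-03), a call lost under quantile normalization (-0.21, adjusted p = 0.219), without OPM1 control 2 (-0.40, adjusted p = 0.0522) and without OPM1 Zalypsis 1 (-0.37, adjusted p = 0.0888). CCNH, which encodes cyclin H, read 509 and 441 before and 587 and 568 after in MM1S (log2 0.27 ± 0.15, adjusted p = 0.165), and fell from 1073 and 987 to 682 and 661 in OPM1-labelled cells (log2 -0.59 ± 0.15, adjusted p = 1.3e-03).

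Within TFIID, 4 of 11 measured genes fell in both lines, against 17.6% of all tested genes: TAF1, TAF2, TAF4 and TAF5. TAF4, a histone-fold scaffold that pairs with TAF12, read 368 and 337 in MM1S controls and 250.2 and 193 after treatment (log2 -0.61 ± 0.15, adjusted p = 2.3e-03), a call lost without MM1S Zalypsis 2 (-0.44, adjusted p = 0.0718). In OPM1-labelled cells it read 496 and 422 before and 59.2 and 49.9 after (log2 -2.50 ± 0.15, an 8.42-fold decrease, adjusted p = 1.9e-12), the largest decrease of any member on the log2 scale. TAF2, which contacts the initiator element, fell from 624 and 649 to 328 and 332 in MM1S (log2 -0.88 ± 0.15, adjusted p = 8.3e-05) and from 684 and 507 to 102 and 92.8 in OPM1-labelled cells (log2 -2.26 ± 0.15, adjusted p = 2.0e-11). A second set annotated to TAF2, with a mean signal of 335, changed by -0.15 and -0.27. TAF5, a WD-repeat scaffold, fell from 277 and 256 to 191 and 194 in MM1S (log2 -0.41 ± 0.14, adjusted p = 0.0216) and from 382 and 321 to 82.6 and 95.2 in OPM1-labelled cells (log2 -1.66 ± 0.14, adjusted p = 4.9e-10). Its second set changed by -0.27 and -1.48. The MM1S call of TAF5 was lost under quantile normalization (-0.28, adjusted p = 0.0831) and without MM1S control 1, Zalypsis 1 or Zalypsis 2 (adjusted p = 0.109, 0.116 and 0.0829).

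TAF1, the largest TAF and the partner of TAF7, fell from 140.2 and 160.5 to 85.0 and 93.0 in MM1S (log2 -0.59 ± 0.12, adjusted p = 5.7e-04) and from 104 and 101 to 48.0 and 45.6 in OPM1-labelled cells (log2 -0.77 ± 0.12, adjusted p = 1.0e-05). Of its 2 other sets, both dim, 1 changed by -0.29 and -0.22 and 1 by 0.28 and 0.19, and the mean over the sets was not called in MM1S (-0.20, adjusted p = 0.112).

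Other TFIID genes rose. TAF13, a small histone-fold subunit that pairs with TAF11, rose from 172 and 213 to 378 and 373 in MM1S (log2 0.87 ± 0.16, adjusted p = 1.4e-04) and from 632 and 504 to 1443 and 1303 in OPM1-labelled cells (log2 1.23 ± 0.16, adjusted p = 4.6e-07). TAF10, which also sits in the coactivator complex SAGA, rose in OPM1-labelled cells from 548 and 458 to 1694 and 1388 (log2 1.55 ± 0.16, 3.06-fold, adjusted p = 2.3e-08), and in MM1S its arrays overlapped (1087 and 862 before, 1218 and 1047 after). TAF7 rose in OPM1-labelled cells from 2056 and 1799 to 3787 and 3888 (log2 0.98 ± 0.14, adjusted p = 2.8e-06) and changed by 0.28 ± 0.14 in MM1S (adjusted p = 0.134). TAF12 rose slightly in OPM1-labelled cells (94.8 and 116 to 130.4 and 151, log2 0.33 ± 0.13, adjusted p = 0.0297). That call was lost without OPM1 control 1 (adjusted p = 0.237), without OPM1 Zalypsis 2 (0.198), with no filter (0.0668) and with only the arrays compared (0.0671).

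TBP rose in MM1S, from 122 and 107 to 201 and 138 (log2 0.44 ± 0.15, adjusted p = 0.0281), and read 479 and 469 before and 384 and 422 after in OPM1-labelled cells (log2 -0.22 ± 0.15, adjusted p = 0.224). TAF11 rose in MM1S as well, from 544 and 467 to 723 and 651 (log2 0.42 ± 0.15, adjusted p = 0.0313), and changed by 0.03 ± 0.15 in OPM1-labelled cells. Both MM1S calls were lost without MM1S control 2 (adjusted p = 0.155 for TBP and 0.165 for TAF11) and without MM1S Zalypsis 1 (0.458 and 0.227), TAF11 also without MM1S Zalypsis 2 (0.066) and TBP also with no filter (0.0655). Other sets of TAF11 changed by 0.64 and 1.69 in OPM1-labelled cells. TAF6 changed by 0.35 ± 0.15 and 0.29 ± 0.15 and missed the threshold in both lines (adjusted p = 0.0743 and 0.0916).

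Over all members, the other probe sets of called genes had the sign of the tested set in 10 of 12 cases in MM1S and 23 of 27 in OPM1-labelled cells. Among sets with a mean signal of at least 100 these counts were 4 of 4 and 9 of 10.

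The responses of the lines differed for 18 of 37 members by the fit's interaction of line and treatment. OPM1-labelled cells responded higher than MM1S for 9 members (all tested genes 15.3%) and lower for 9 (all tested genes 31.2%), with a median difference of -0.05 for the members and -0.13 for all tested genes. The higher side rests on the deposited scale, since poly-A scaling could not be used in MM1S. With that scaling the change in OPM1-labelled cells was negative for each of the 9. For TAF10, POLR2L and POLR2C it was -0.48, -0.37 and -0.88, against 0.22, 0.38 and 0.13 in MM1S as deposited. The largest differences were TAF10 (1.34 ± 0.23, adjusted p = 5.9e-05), POLR2L (1.33 ± 0.20, adjusted p = 1.1e-05) and POLR2C (1.04 ± 0.23, adjusted p = 9.6e-04) on the higher side. On the lower side they were TAF4 (-1.90 ± 0.21, adjusted p = 2.2e-07), GTF2A1 (-1.53 ± 0.22, adjusted p = 5.6e-06) and TAF2 (-1.38 ± 0.22, adjusted p = 2.2e-05). Without shared probe sets the difference of POLR2L was 0.36 and was not called (adjusted p = 0.0945). With quantile normalization 14 members were higher and 7 lower, and the share of higher genes among all calls moved from 33.0% to 47.3%. Without MM1S Zalypsis 2 only 5 were higher.

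**Figure D3:**
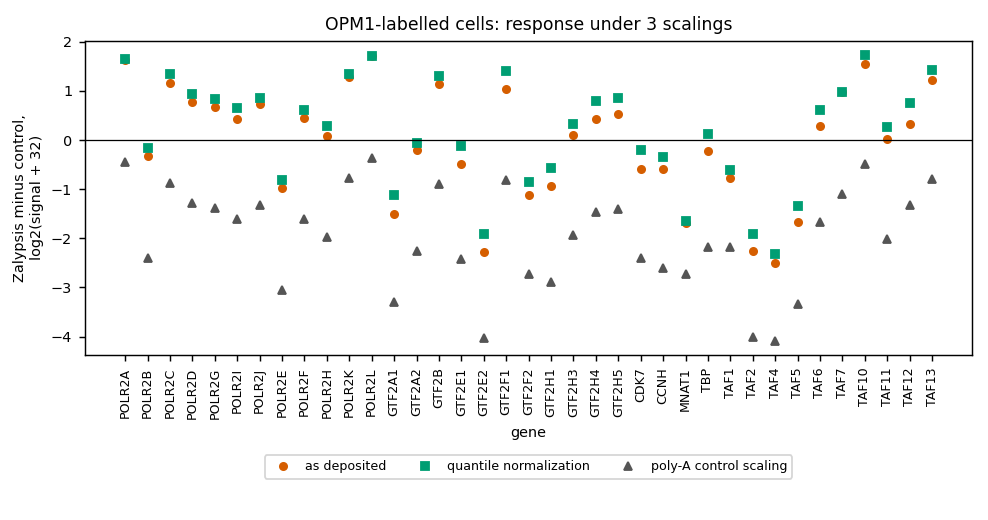
Log2 change of each measured member in OPM1-labelled cells on 3 scales: values as deposited (circles), after quantile normalization (squares), and after division by the poly-A controls (triangles). POLR2L stands at 1.71 as deposited and -0.37 under poly-A scaling, TAF4 at -2.50 and -4.08; every triangle lies below 0.

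The members' response was ordered by gene length in both lines, as was that of all genes. Gene span, from the start to the end of the gene in RefSeq's annotation of GRCh38.p14, had a Spearman correlation with the log2 change of -0.52 in MM1S and -0.67 in OPM1-labelled cells over the 37 members, and of -0.48 in each over 11855 genes. These are correlations across genes measured on the same arrays, which are not independent replicates. The members called higher had a median span of 11.9 kb in MM1S and 9.33 kb in OPM1-labelled cells, and those called lower 96.6 kb and 66.1 kb. The 9 members of at least 50 kb were POLR2B, POLR2F, GTF2E2, GTF2F2, CCNH, MNAT1, TAF1, TAF2 and TAF4. Of these, 0 rose and 6 fell in MM1S, and 1 rose and 8 fell in OPM1-labelled cells. Among all tested genes of that length, 5.32% rose and 48.7% fell in MM1S, and 8.66% rose and 63.4% fell in OPM1-labelled cells.

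MNAT1 is the longest, at 235 kb, and fell over 10-fold in both lines. Single members departed from the order by length. POLR2A, with the largest rise of the members in MM1S (1.74), spans 30.3 kb, above the medians of the members and of all tested genes. POLR2F, at 88.3 kb in the annotation, rose in OPM1-labelled cells, and CCNH, at 101 kb, was not called in MM1S (0.27 ± 0.15). TAF5 spans 21.1 kb and fell in both lines, and POLR2E, at 8.80 kb, fell in OPM1-labelled cells. Of the 28 members under 50 kb, 7 rose and 2 fell in MM1S, and 16 rose and 6 fell in OPM1-labelled cells, against 21.9% and 7.67%, and 33.6% and 26.3%, of all shorter genes. The median span was 21.1 kb for the members and 28.3 kb for all tested genes.

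**Figure D4:**
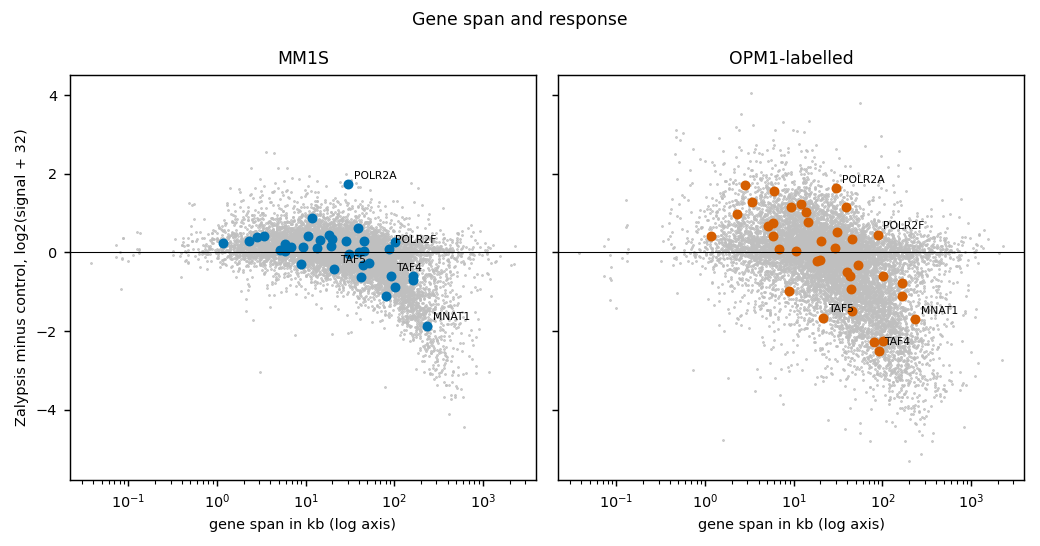
Log2 change against gene span in kb (log axis) for all tested genes (grey) and the 37 members (coloured), MM1S on the left and OPM1-labelled cells on the right. MNAT1 (235 kb) lies at -1.86 and -1.69, POLR2A (30.3 kb) at 1.74 and 1.63; the OPM1-labelled values are on the deposited scale.

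Promoters are shown for the 3 members with the largest called rise and the 3 with the largest called fall in either line, so that both kinds can be compared base by base, as 150 bases before the annotated start from RefSeq (GRCh38.p14). GTF2E2 and TAF2, which fell further than MNAT1 and TAF5 on the log2 scale, were left out of this choice and are not shown. The 3 falls shown are thus the largest only among the remaining members. Capitals mark matches on either strand to the TATA box TATAAA, to the CCAAT box, to the GC box GGGCGG, or to the E-box CACGTG; neighbouring or overlapping matches form 1 run. POLR2A (chr17:7484216-7484365, plus strand), POLR2L (chr11:842530-842679, minus strand) and TAF10 (chr11:6612217-6612366, minus strand) rose, TAF10 in OPM1-labelled cells only. TAF4 (chr20:62065882-62066031, minus strand), MNAT1 (chr14:60734611-60734760, plus strand) and TAF5 (chr10:103367826-103367975, plus strand) fell.
POLR2A: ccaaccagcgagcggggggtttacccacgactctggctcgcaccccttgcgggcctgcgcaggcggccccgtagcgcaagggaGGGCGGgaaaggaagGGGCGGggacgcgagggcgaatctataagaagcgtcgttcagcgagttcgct
POLR2L: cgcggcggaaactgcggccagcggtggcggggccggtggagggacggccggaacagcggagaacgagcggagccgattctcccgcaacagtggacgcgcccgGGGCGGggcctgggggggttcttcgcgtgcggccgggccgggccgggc
TAF10: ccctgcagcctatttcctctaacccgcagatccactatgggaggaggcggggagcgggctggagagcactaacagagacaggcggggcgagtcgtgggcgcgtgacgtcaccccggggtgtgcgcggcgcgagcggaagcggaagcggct
TAF4: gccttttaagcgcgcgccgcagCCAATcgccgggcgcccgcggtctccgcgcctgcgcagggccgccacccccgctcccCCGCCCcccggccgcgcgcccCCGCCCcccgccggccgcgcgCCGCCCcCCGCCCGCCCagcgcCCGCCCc
MNAT1: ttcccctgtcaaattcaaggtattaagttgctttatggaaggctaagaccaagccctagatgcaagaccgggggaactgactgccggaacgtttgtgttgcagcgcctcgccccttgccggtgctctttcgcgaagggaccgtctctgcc
TAF5: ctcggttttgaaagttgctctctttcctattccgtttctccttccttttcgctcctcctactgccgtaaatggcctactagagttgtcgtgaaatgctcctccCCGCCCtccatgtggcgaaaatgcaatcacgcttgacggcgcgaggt
POLR2A holds 2 GC boxes, 67 and 52 bases before the start, and POLR2L holds 1, 48 bases before it. TAF4 holds 6 on the opposite strand and a CCAAT 128 bases before the start, and TAF5 holds 1 GC box, 47 bases before it. TAF10 and MNAT1 hold none of the 4 in this window. GC content ranged from 52.0% (TAF5) to 88.7% (TAF4), both of them genes that fell.

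Promoter entries were at hand for 31 members and 9627 tested genes. In the 250 bases before the start, TATAAA was found in 1 of the 31 (GTF2B, 3.23%, against 5.61% of tested genes) and CCAAT in 6 (19.4% against 35.6%). GGGCGG was found in 17 (54.8% against 66.1%) and CACGTG in 5 (16.1% against 9.0%): TAF12, GTF2B, CDK7, GTF2H1 and GTF2A1. Those 5 moved in different directions in OPM1-labelled cells, with TAF12 and GTF2B higher and CDK7, GTF2H1 and GTF2A1 lower. Median GC content was 58.0% for the members and 64.8% for tested genes.

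Untreated OPM1-labelled cells were higher than untreated MM1S for 12 of 37 members (all tested genes 28.6%) and lower for 8 (all tested genes 35.2%), with a median of 0.08 for the members and -0.05 for all tested genes. These values are on the deposited scale. The poly-A controls read 19.7 on both MM1S controls against 299.7 and 448 on the OPM1 controls. The part of that difference in this comparison was not tested. TBP stood furthest apart, at 479 and 469 against 122 and 107 (log2 1.79 ± 0.15, 4.14-fold, adjusted p = 1.2e-09). GTF2H4 read 237 and 258 against 74.9 and 52.6 (log2 1.55 ± 0.14, adjusted p = 1.5e-09), TAF13 632 and 504 against 172 and 213 (log2 1.42 ± 0.16, adjusted p = 7.1e-08), and CCNH 1073 and 987 against 509 and 441 (log2 1.07 ± 0.15, adjusted p = 1.7e-06). GTF2E1 (0.83), TAF7 (0.82), TAF11 (0.82), POLR2E (0.77), POLR2A (0.69), GTF2H1 (0.47), TAF5 (0.36) and TAF4 (0.35) were also higher by log2.

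POLR2L was the lowest of the members relative to MM1S, at 1123 and 1519 against 2993 and 2539.9 (log2 -1.06 ± 0.14, adjusted p = 8.9e-07). GTF2F1 (-0.91), TAF10 (-0.91), POLR2H (-0.77), POLR2I (-0.65), POLR2J (-0.48), TAF1 (-0.44) and TAF6 (-0.39) were lower as well. POLR2L, GTF2F1, TAF10, POLR2I and POLR2J, low before treatment in OPM1-labelled cells, were among those that rose there with Zalypsis, and both comparisons use the same OPM1 control arrays. The smaller of these calls rested on single arrays. POLR2J was lost without OPM1 control 1 (-0.20, adjusted p = 0.276) or MM1S control 1 (-0.43, adjusted p = 0.068). Without OPM1 control 1, GTF2H1 (0.32, adjusted p = 0.138), TAF4 (0.24, adjusted p = 0.24), TAF5 (0.24, adjusted p = 0.215) and TAF6 (-0.39, adjusted p = 0.0835) were lost too. Without MM1S control 2, GTF2H1 (adjusted p = 0.0545), TAF1 (0.0519), TAF4 (0.173) and TAF5 (0.126) were lost, and TAF4 (0.0583) and TAF6 (0.151) were lost without MM1S control 1, TAF6 also without OPM1 control 2 (0.0754), and TAF4 also without either treated OPM1 array (0.0542 and 0.0549). The mean over the probe sets ended the calls of POLR2A (0.21, adjusted p = 0.101) and POLR2E (0.07, adjusted p = 0.84). Quantile normalization gave 16 members higher and 7 lower.

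**Figure D5:**
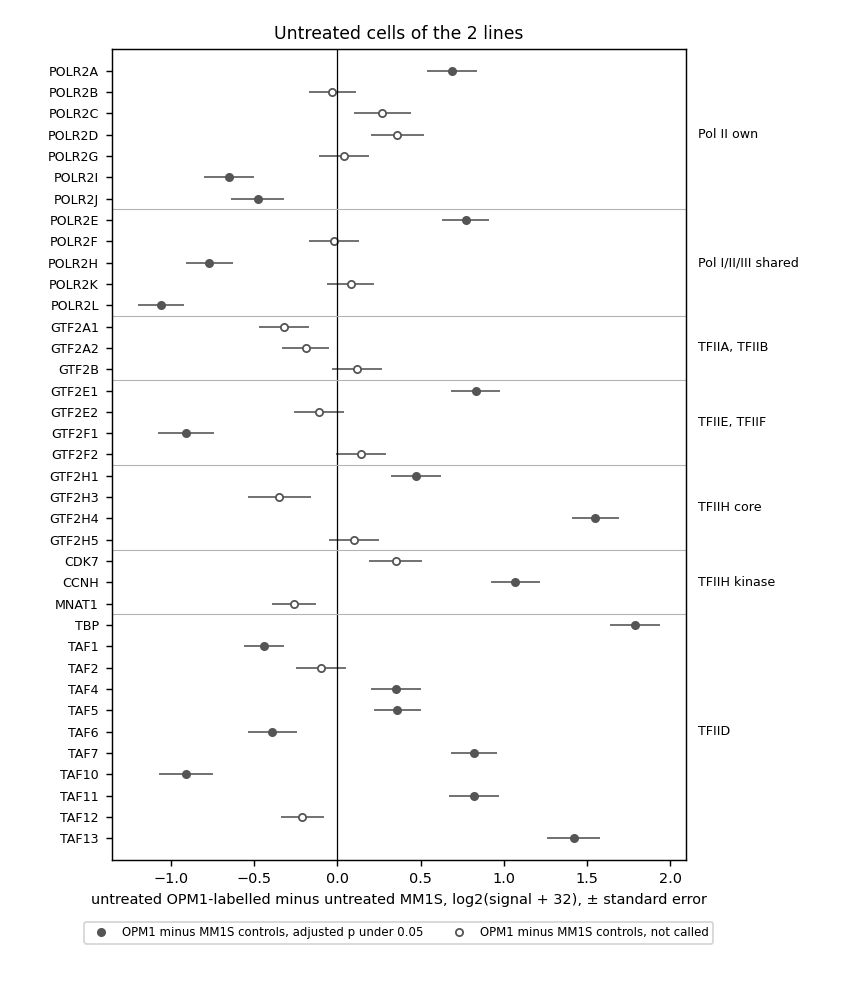
Difference between untreated OPM1-labelled and untreated MM1S cells (log2(signal + 32), ± standard error) for the 37 measured members; filled points have an adjusted p under 0.05. TBP lies furthest to the right at 1.79 and POLR2L furthest to the left at -1.06. Values are on the deposited scale.

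Genes that work beside the members were counted from lists of related complexes, and each count stands against the shares of all tested genes: 16.4% rose and 21.1% fell in MM1S, and 25.4% rose and 38.5% fell in OPM1-labelled cells. Most lists are short, and nothing particular to a list is read from its counts. Of 7 tested further subunits of TFIIH and TFIID, 3 rose and 2 fell in MM1S, and 2 rose and 3 fell in OPM1-labelled cells (median log2 -0.07 and -0.28). TAF4B, the paralog of TAF4, fell in each line (log2 -2.24 and -3.96), TAF3 fell by 1.41 and 1.56, and TAF9B, the paralog of TAF9, rose by 0.55 and 0.76. ERCC2, a helicase of TFIIH, rose in MM1S (0.46), and TAF8 rose in OPM1-labelled cells (0.71). Of 4 relatives and regulators of TBP, 1 rose and 1 fell in MM1S and 2 rose and 1 fell in OPM1-labelled cells (median 0.16 and 0.55). BTAF1, which removes TBP from DNA, fell (-0.69 and -1.30), DR1, a repressor of TBP, rose (0.43 and 0.99), and its partner DRAP1 rose in OPM1-labelled cells (1.19).

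Set against the same shares, among 14 SAGA subunits 3 rose and 4 fell in MM1S and 5 rose and 6 fell in OPM1-labelled cells (median 0.09 and -0.08). TRRAP (-1.62 and -3.0) and the acetyltransferase KAT2B (-0.94 and -0.85) fell, while TADA2B (0.95 and 1.14), SUPT7L (0.69 and 1.48) and TAF6L (0.39 and 2.60) rose. Of 29 tested Mediator genes, 7 rose and 9 fell in MM1S and 13 rose and 11 fell in OPM1-labelled cells (median 0.08 and 0.28). The Mediator kinase CDK8 fell (-1.33 and -2.76) and its paralog CDK19 rose (1.19 and 2.16). MED13L (-2.56 and -2.81) and MED27 (-1.91 and -2.69) fell, and MED28 (1.03 and 1.69) and MED19 (0.47 and 2.01) rose.

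The other polymerases share 5 subunits with polymerase II. Of 6 subunits of polymerase I alone, 0 rose and 2 fell in MM1S and 2 rose and 2 fell in OPM1-labelled cells (median -0.15 and 0.18). Its largest and second-largest subunits POLR1A (-1.05 and -2.18) and POLR1B (-0.67 and -2.70) fell, unlike POLR2A, and POLR1F (1.24) and POLR1H (0.40) rose in OPM1-labelled cells. Of the 2 subunits shared by polymerases I and III (median 0.11 and 0.07), neither was called in MM1S, and in OPM1-labelled cells POLR1C rose (1.25) and POLR1D fell (-1.12). Of 10 polymerase III subunits, 1 rose and 4 fell in MM1S and 2 rose and 6 fell in OPM1-labelled cells (median -0.24 and -0.36), with POLR3B (-2.04 and -2.71) the deepest in each, POLR3E lower in both (-0.96 and -2.01) and POLR3G lower in OPM1-labelled cells (-2.23). POLR3GL, the paralog of POLR3G, rose in both (0.72 and 0.67), and POLR3C rose in OPM1-labelled cells (0.84).

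Of 7 factors that assemble or import polymerase II, 1 rose and 0 fell in MM1S, and 2 rose and 4 fell in OPM1-labelled cells (median 0.03 and -0.41). GPN3 went both ways, up in MM1S (0.45) and down in OPM1-labelled cells (-0.73), RPAP3 fell there (-1.45), and SLC7A6OS (0.72) and GPN1 (0.42) rose there. Of 5 phosphatases of the C-terminal domain, 0 rose and 2 fell in MM1S and 0 rose and 4 fell in OPM1-labelled cells (median -0.25 and -0.85), led by CTDP1 (-0.60 and -1.13) and SSU72 (-0.47 and -1.39). Of 4 tested copies and partners of polymerase II, 1 rose and 1 fell in MM1S and 2 rose and 1 fell in OPM1-labelled cells (median 0.20 and 0.33). The elongation factor TCEA1 fell (-0.57 and -2.41), its relative TCEA2 rose (0.45 and 0.77), and POLR2J4, a copy of POLR2J, rose in OPM1-labelled cells (0.70).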

How the data were processed

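Per the labels' protocols, RNA went through 2 cycles of cDNA synthesis, was biotin-labelled and put on 1 array per sample, and per the series' design text it was analysed with dChip. The authors deposited 1 linear intensity per probe set and array. Which dChip version, normalization and model they used is not given in the sources used here, and the number of arrays limits the precision.

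The values were turned into log2(value + 32), which understates changes of dim genes. Of 54675 probe sets, 62 controls were left out. Of the rest, 41091 had 1 gene symbol and were used (41043 matched by gene identifier), 1801 had several and 11721 had none in the table used here. The set with the highest mean stood for a gene. The 40% of 19775 genes with the lowest mean (signal under 27.2) were left out, leaving 11865. The 4 group means were fitted in R 4.3.3 with limma 3.58.1 (lmFit, then contrasts.fit and eBayes with trend, 4 residual and 17.0 prior degrees of freedom), with Benjamini-Hochberg adjustment. Alternatives kept the genes and sets of that fit, except those on filter and probe sets. Sequences were read with Python 3.11.15. The steps were tested on simulated data.

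The members, lists, markers and motifs were chosen with earlier results of these data known. All members are named. For each list of related genes, the up to 2 largest called rises and 2 largest called falls of each line are named. Arrays of a group correlated at 0.988 to 0.993, other pairs at 0.802 to 0.963, and no pair shared over 441 identical values.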

Additional observations from a re-analysis of the deposited data

Results flagged for a closer look

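The 18 members below were set apart because their response to Zalypsis differed between OPM1-labelled cells and MM1S by the interaction of line and treatment in limma's fit (adjusted p under 0.05). Values are OPM1-labelled minus MM1S responses on the log2 scale. They come from the deposited scaling, and the OPM1-labelled arrays differ from the MM1S arrays in poly-A controls and B-lineage markers, whose part in these differences was not tested. Under poly-A scaling the change in OPM1-labelled cells was negative for every member.

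The response was higher in OPM1-labelled cells for the polymerase subunits POLR2L (1.33), POLR2C (1.04), POLR2K (0.88), POLR2J (0.68) and POLR2G (0.60). It was also higher for TAF10 (1.34), TAF7 (0.70), GTF2F1 (0.92) and GTF2H5 (0.57). POLR2L was lost without shared probe sets (0.36, adjusted p = 0.0945). POLR2G was lost without MM1S control 1 (0.45, adjusted p = 0.0988), without MM1S Zalypsis 2 (0.49, adjusted p = 0.132), without OPM1 control 1 (0.51, adjusted p = 0.0813) and without either treated OPM1 array (adjusted p = 0.0764 and 0.076). POLR2J was lost without MM1S control 1 (adjusted p = 0.0508), MM1S Zalypsis 2 (0.0702), OPM1 control 1 (0.106) or OPM1 Zalypsis 2 (0.0744). GTF2H5 was lost without MM1S control 1 (adjusted p = 0.11), either treated MM1S array (0.0852 and 0.084), OPM1 control 1 (0.228) or OPM1 Zalypsis 2 (0.11), with the mean of its probe sets (0.19, adjusted p = 0.278) and with no filter (0.0707), and TAF7 without MM1S Zalypsis 2 (0.56, adjusted p = 0.06).

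The response was lower in OPM1-labelled cells for 3 TAFs, TAF4 (-1.90), TAF2 (-1.38) and TAF5 (-1.25). It was also lower for GTF2A1 (-1.53), GTF2E2 (-1.18), CCNH (-0.86), POLR2E (-0.69), TBP (-0.66) and GTF2H1 (-0.61). TAF4, TAF2, TAF5 and GTF2E2 fell in both lines, so for these 4 the difference is one of size. TBP was lost without MM1S control 2 (-0.59, adjusted p = 0.0581), MM1S Zalypsis 1 (-0.43, adjusted p = 0.159) or OPM1 Zalypsis 1 (-0.60, adjusted p = 0.0595), and with quantile normalization (-0.38, adjusted p = 0.106). POLR2E was lost with the mean of its probe sets (-0.10, adjusted p = 0.851) and without MM1S Zalypsis 1 (-0.59, adjusted p = 0.0509). GTF2H1 was lost without MM1S control 2 (adjusted p = 0.0572), either treated MM1S array (0.0713 and 0.0597), OPM1 control 1 (0.122) or OPM1 Zalypsis 2 (0.0861), and with quantile normalization (-0.33, adjusted p = 0.106).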

How the results depend on the processing

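Of the members called, 8 of 15 in MM1S, 21 of 31 in OPM1-labelled cells, 10 of 18 for the difference of the responses and 12 of 20 between the untreated lines were called in every alternative run that could test them, leaving aside poly-A scaling and the 2-fold rule. Quantile normalization gave 13 members higher in MM1S and 14 for the difference. The replicate block, with the number in the labels as block, gave 13 higher in MM1S and moved no other count of member calls by over 1.5 times; nothing in the labels says that the numbers pair the arrays, and the deviations of same-numbered arrays correlated at 0.21 in each line. Without shared probe sets (26 members left), 5 were lower in MM1S, 10 were higher in OPM1-labelled cells, 5 were higher for the difference and 4 were lower between the untreated lines, and POLR2L reversed in MM1S (-0.05). Fewer members could be tested there. Under the 2-fold rule, 1 was higher and 2 lower in MM1S, 8 and 7 in OPM1-labelled cells, 3 and 5 for the difference, and 4 and 1 between the untreated lines. Leaving out 1 array at a time gave 3 to 8 members higher in MM1S and 5 to 12 higher for the difference. Poly-A scaling gave 0 higher and 34 lower in OPM1-labelled cells and reversed all 17 rises there: POLR2A -0.45, POLR2C -0.88, POLR2D -1.28, POLR2G -1.39, POLR2I -1.61, POLR2J -1.33, POLR2F -1.60, POLR2K -0.78, POLR2L -0.37, GTF2B -0.90, GTF2F1 -0.82, GTF2H4 -1.47, GTF2H5 -1.40, TAF7 -1.10, TAF10 -0.48, TAF12 -1.32 and TAF13 -0.80. Except where stated, the cause was not tested. Signal over background limits MNAT1 most, since its treated signals lay below the array medians.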
